A study of Mus musculus with 9 samples.

Results

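Methylation of 9 imprinted genes on chromosomes 6, 7 and 9, *H19*, *Igf2*, *Kcnq1ot1*, *Snrpn*, *Peg3*, *Mest*, *Peg10*, *Nap1l5* and *Rasgrf1*, was compared between *Dnmt3a* KO and *Dnmt3b* KO mouse ESCs. The genes were listed by name as known imprinted loci, and their CpGs were taken from 10 kb upstream to 10 kb downstream of each gene body in the mm9 build. The windows hold 5624 of the 21342492 CpGs of the reference, and at least 3 reads covered 5515 of them in *Dnmt3a* KO and 5537 of them in *Dnmt3b* KO ESCs. WGBS was carried out on J1 ESCs, a line from the 129S4/SvJae mouse strain, grown on gelatin in serum with LIF. The genotypes were wild type, *Dnmt3a*-/- and *Dnmt3b*-/-, with 3 libraries each, which the authors pooled by genotype into read counts per CpG. WT is not analysed here, because the WT table at hand holds 0 rows on chromosomes 6, 7 and 9. Every level below thus comes from 1 pooled table, the spread between libraries is unknown, and nothing could be tested over replicates. Intervals are 95% Wilson intervals of the share of methylated reads and 95% Newcombe intervals of the difference of 2 shares. They cover counting error only and are too narrow even for that, since a read is counted at every CpG it spans. The labels do not say how many clones a KO genotype stands for, and reads of the maternal and paternal allele cannot be told apart in these tables.

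An imprinted gene is expressed from only the maternal or only the paternal copy. At most of these loci the choice is set by a germline differentially methylated region (DMR), which is methylated in the egg or in the sperm and keeps that methylation on the same parental copy in the embryo while the rest of the genome is reset. DNMT3A and DNMT3B are the enzymes that place new methylation, whereas germline DMRs are held mainly by the maintenance enzyme DNMT1 with the zinc finger protein ZFP57 and its partner TRIM28, and *H19* and *Rasgrf1* are the members of this list that carry the mark on the paternal copy. When 1 copy is methylated and the other is not, reads of both copies together give an intermediate methylation level.

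The germline DMR of each gene was taken as the CpG-dense stretch at its known imprinting control, that is a run of CpGs at most 100 bp apart that holds at least 10 CpGs. It was chosen from the sequence and the annotation, without use of methylation values, and 8 of the 9 genes have one. *Igf2*, the insulin-like growth factor gene, has none of its own and is controlled from the *H19* DMR. The sequences of 5 germline DMRs are shown as examples with the hexamer TGCCGC read by ZFP57 and, at *H19*, the core GGNGGCAG of the site of the insulator protein CTCF. A window at *Snrpn*, not shown, also holds 2 hexamers and had 30.4% of reads methylated in *Dnmt3a* KO against 31.5% in *Dnmt3b* KO ESCs. That at *Peg10*, not shown, holds 0 and had 39.8% and 62.3%, the widest difference of the 7 windows at -22.5 (interval -27.7 to -17.0). Each is the 150-base window outside annotated exons that is richest in CpGs, read 5′ to 3′ on the strand of the gene in mm9, with CpGs in capitals. The windows are chr7:149766149-149766298 at *H19* on the minus strand with 12 CpGs, chr7:150481467-150481616 at *Kcnq1ot1* on the minus strand with 20, chr7:6682347-6682496 at *Peg3* on the minus strand with 13, chr6:30687883-30688032 at *Mest* on the plus strand with 12, and chr9:89774498-89774647 at *Rasgrf1* on the plus strand with 18.
H19 germline DMR: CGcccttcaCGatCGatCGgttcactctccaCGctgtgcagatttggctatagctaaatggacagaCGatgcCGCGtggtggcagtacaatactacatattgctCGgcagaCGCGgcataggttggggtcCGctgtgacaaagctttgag
Kcnq1ot1 germline DMR: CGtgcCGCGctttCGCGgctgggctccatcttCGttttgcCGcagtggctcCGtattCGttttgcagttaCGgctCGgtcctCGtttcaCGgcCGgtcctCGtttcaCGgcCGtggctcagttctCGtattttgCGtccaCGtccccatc
Peg3 germline DMR: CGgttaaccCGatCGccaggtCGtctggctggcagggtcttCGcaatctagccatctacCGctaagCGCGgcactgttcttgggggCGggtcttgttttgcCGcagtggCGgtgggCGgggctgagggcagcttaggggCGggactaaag
Mest germline DMR: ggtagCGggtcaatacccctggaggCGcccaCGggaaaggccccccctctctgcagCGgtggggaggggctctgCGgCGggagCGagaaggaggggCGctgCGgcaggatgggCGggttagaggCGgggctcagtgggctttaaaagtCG
Rasgrf1 germline DMR: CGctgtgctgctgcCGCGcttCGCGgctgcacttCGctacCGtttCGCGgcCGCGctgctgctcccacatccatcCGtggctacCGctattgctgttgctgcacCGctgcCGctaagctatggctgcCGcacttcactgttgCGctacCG

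Over these bases, *H19* had 93.5% methylated reads in *Dnmt3a* KO against 97.3% in *Dnmt3b* KO ESCs. *Kcnq1ot1* had 48.6% and 48.0%, and *Mest* had 36.2% and 31.3%, in the same order, with intervals of the difference that include 0. *Peg3* had 23.9% and 46.1%, a difference of -22.1 percentage points (95% interval -29.6 to -14.5), and *Rasgrf1* had 39.1% and 45.5% (difference -6.39, interval -14.1 to 1.54). The hexamer TGCCGC, searched on both strands, occurs 2 times in the *H19* window, 2 times at *Kcnq1ot1*, 2 times at *Peg3*, 1 time at *Mest* and 3 times at *Rasgrf1*. In the *H19* window 1 hexamer precedes the CTCF core, which occurs 1 time there, on the same strand. At *H19* the interval (-7.19 to -0.756) came close to 0.

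Across the whole germline DMRs, methylation was at intermediate levels in both KO lines at most loci, with lower levels in *Dnmt3a* KO ESCs. The median level of the 8 DMRs was 39.5% in *Dnmt3a* KO compared with 50.6% in *Dnmt3b* KO ESCs, with ranges of 27.5% to 90.2% and 42.1% to 97.1%. All 8 had a lower share of methylated reads in *Dnmt3a* KO ESCs, and the counting interval of the difference lay below 0 in 7 of them. With gaps of at most 50 bp the direction turned at *Mest*, and at *Snrpn*, where the choice moved to a neighbouring stretch over a TSS. It also turned on the minus strand alone at *Rasgrf1* (0.261, interval -6.82 to 7.36). The median difference (*Dnmt3a* KO minus *Dnmt3b* KO, here and below) was -13.3 percentage points. With stretches joined across gaps of at most 50 bp it was -5.92. The stretch then taken for *Kcnq1ot1* (1.42% and 9.43%) lay elsewhere in its host gene *Kcnq1*, outside the germline DMR. A region was called where the difference exceeded 20 percentage points and its interval left out 0. By this rule 1 of the 8 DMRs, that of *Nap1l5*, was called lower in *Dnmt3a* KO and 0 were called higher. Of all 250089 CpG-dense stretches of the genome, 62.8% were called lower and 0.0288% higher by the same rule.

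**Figure D1:**
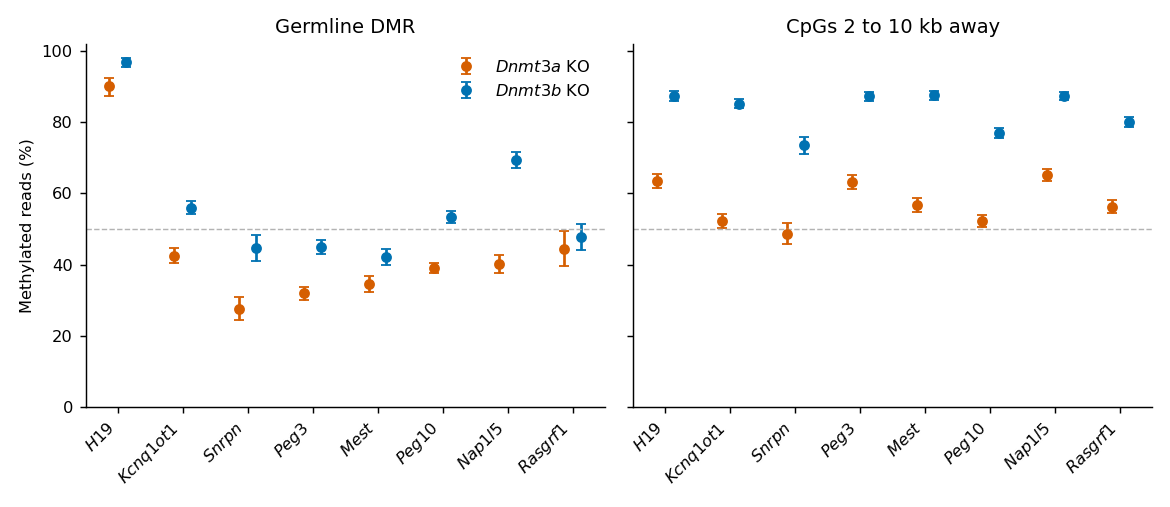
Share of methylated reads (%) at the germline DMR of 8 imprinted genes (left) and at CpGs 2 to 10 kb away outside CpG-dense stretches (right) in *Dnmt3a* KO (orange) and *Dnmt3b* KO (blue) ESCs, each from 1 merged table; bars are 95% Wilson intervals. The DMRs other than *H19* lie between 27.5% and 69.4% in the 2 lines together. The flanks of *Dnmt3b* KO ESCs lie above this range, between 73.6% and 87.7%, and those of *Dnmt3a* KO ESCs inside it, between 48.6% and 65.1%.

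*H19* encodes a noncoding RNA that is expressed from the maternal copy. Its DMR (chr7:149765988-149766298, 20 CpGs) lies from 1940 to 2250 bp upstream of the gene, outside annotated genes. It was the DMR with the highest level, at 90.2% of 551 reads in *Dnmt3a* KO and 97.1% of 613 reads in *Dnmt3b* KO ESCs, a difference of -6.86 (interval -9.83 to -4.10). In both lines this is above the level of each of the other 7 DMRs. All 20 CpGs were at 80% or more in *Dnmt3b* KO ESCs, and 15 of 20 were in *Dnmt3a* KO ESCs. The stretch is only a piece of the imprinting control region. With CpGs joined across gaps of up to 200 bp, the region (chr7:149765566-149768193, 80 CpGs) had 81.3% in *Dnmt3a* KO versus 94.1% in *Dnmt3b* KO ESCs, a difference of -12.8 (interval -14.8 to -10.8). The promoter of *H19*, taken as 500 bp on both sides of the TSS, was also high, at 67.4% and 90.7%, and was called lower.

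*Rasgrf1*, which encodes a guanine nucleotide exchange factor for RAS proteins, carries the other paternal mark. Its DMR (chr9:89774439-89774763, 31 CpGs) lies from 29850 to 30174 bp upstream of the TSS and outside the 10-kb window. It had 44.4% of 392 reads methylated in *Dnmt3a* KO and 47.7% of 683 reads in *Dnmt3b* KO ESCs. The difference of -3.34 (interval -9.46 to 2.85) was the smallest of the 8. It was not detectable at this depth, which was 12.6 reads per CpG in *Dnmt3a* KO against 22.0 in *Dnmt3b* KO ESCs. It was not the smallest with the mean of CpG ratios (-3.01, against -1.71 at *Mest*) or with gaps of up to 200 bp (-8.06, against -7.04 at *Snrpn*). Nor was it with both strands weighted equally (-6.80, against -6.22 at *H19*). From plus-strand CpGs of at least 3 reads alone the difference was -31.4 (interval -42.8 to -15.2), from 39 reads in *Dnmt3a* KO ESCs, and was called lower. All plus-strand reads gave 38.0% of 50 reads and 51.9% of 268, short of the limit for a call. Over the longer region joined across gaps of up to 200 bp, 108 CpGs gave 43.7% and 51.8%, a difference of -8.06 (interval -11.2 to -4.87). The intermediate level of *Rasgrf1* was therefore present in both lines, in contrast to *H19*. The TSS of *Rasgrf1* itself was unmethylated, with 1.64% at the promoter in *Dnmt3a* KO against 0.420% in *Dnmt3b* KO ESCs.

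The other 6 germline DMRs are methylated on the maternal copy. Their median level was 36.7% in *Dnmt3a* KO against 49.2% in *Dnmt3b* KO ESCs. *Kcnq1ot1* is a long antisense RNA that silences genes of its cluster on the paternal copy. Its DMR (chr7:150480957-150482505, 99 CpGs) holds its TSS and lies in an intron of the potassium channel gene *Kcnq1*. It had 42.5% in *Dnmt3a* KO compared with 56.0% in *Dnmt3b* KO ESCs, a difference of -13.5 (interval -16.3 to -10.7). The difference was uneven along the DMR. The bin 0.5 kb before its centre had 42.5% and 65.8% and was called lower, whereas the bin 0.5 kb after the centre had 44.6% and 47.2%.

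*Snrpn* encodes a protein of the splicing machinery and lies in the region linked to Prader-Willi and Angelman syndromes in humans. Its DMR (chr7:67148929-67149787, 35 CpGs) lies in an intron of the gene, 255 bp from the nearest annotated TSS. It had the lowest level in *Dnmt3a* KO ESCs, 27.5%, against 44.6% in *Dnmt3b* KO ESCs, a difference of -17.1 (interval -21.9 to -12.2). With both strands weighted equally its level in *Dnmt3a* KO ESCs was not the lowest (31.0%, against 30.9% at *Peg3*). Nor was it with gaps of up to 200 bp (31.5%, against 31.4% at *Peg3*). Over the region joined across gaps of up to 200 bp (chr7:67148447-67150182, 56 CpGs) the levels were 31.5% and 38.6%, a difference of -7.04 (interval -10.9 to -3.15). The neighbouring stretch over that TSS (chr7:67149928-67150182, 14 CpGs), which is part of this joined region, went the other way, at 44.3% and 36.0%. Within the DMR the difference was uneven too. The bin 0.1 kb after its centre had 19.2% and 52.2% and was called lower, whereas the bin 0.4 kb before the centre had 36.7% and 34.8%. *Peg3*, a zinc finger gene expressed from the paternal copy, has its DMR over its promoter (chr7:6681721-6684008, 106 CpGs). This DMR runs from 876 bp upstream of the 5′ end into the exons, UTR and intron of the gene. It had 31.9% in *Dnmt3a* KO versus 44.96% in *Dnmt3b* KO ESCs, a difference of -13.1 (interval -15.7 to -10.4). In both genes the DMR lay below the pooled CpGs 2 to 10 kb away outside CpG-dense stretches. At *Snrpn* low levels ran on past the DMR, with 19.7% and 32.0% in the bin 1.9 kb before its centre.

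*Mest* encodes an enzyme of the alpha/beta hydrolase fold and is expressed from the paternal copy. Its DMR (chr6:30687609-30689118, 89 CpGs) covers an internal TSS with exon and UTR sequence, and had 34.4% in *Dnmt3a* KO against 42.1% in *Dnmt3b* KO ESCs. The difference was -7.65 (interval -10.8 to -4.50). Its size and direction depended on the way it was measured. With the mean of CpG ratios it was -1.71, over the longer region joined across gaps of up to 200 bp -12.4, with both strands weighted equally -14.5 and on the minus strand alone -28.6, past the limit for a call. In the CpG-richest piece (chr6:30687888-30688499, 59 CpGs), joined across gaps of up to 50 bp, the order was turned, with 40.5% and 35.7%, a difference of 4.79 (interval 0.382 to 9.19). In the stretch over another TSS of *Mest* (chr6:30682412-30683592), outside the DMR, the levels were 24.6% and 54.5%, and that stretch was called lower. *Peg10* was derived from a retrotransposon and is needed for the placenta. Its DMR (chr6:4696870-4699483, 170 CpGs) holds its TSS and that of the neighbouring gene *Sgce* and had 39.0% and 53.4%, a difference of -14.5 (interval -16.6 to -12.2).

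*Nap1l5*, a gene without introns that encodes a protein of the nucleosome assembly family, lies inside *Herc3*. Its DMR (chr6:58856295-58857789, 69 CpGs) had 40.1% of 1497 reads methylated in *Dnmt3a* KO and 69.4% of 1487 reads in *Dnmt3b* KO ESCs, a difference of -29.3 (interval -32.7 to -25.9). This was the only DMR called, and it had the highest level of the 6 maternal DMRs in *Dnmt3b* KO ESCs. The call rests on the minus strand. In *Dnmt3a* KO ESCs 67.8% of 416 plus-strand reads and 29.4% of 1081 minus-strand reads were methylated, a gap between strands of 38.4 percentage points (interval 33.0 to 43.4). In *Dnmt3b* KO ESCs the strands had 74.0% and 64.9%. From plus-strand CpGs of at least 3 reads alone the difference was -6.01 (interval -11.6 to -0.566), and with both strands weighted equally, an alternative chosen after the data were seen, it was -20.9 (interval -24.4 to -17.4).

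Other DMRs also differed between strands. Counting *Nap1l5*, the interval of the gap between strands left out 0 in 5 of 8 DMRs in *Dnmt3a* KO and in 4 of 8 in *Dnmt3b* KO ESCs. At *Mest* the strands went in opposite directions in the 2 lines, with 36.6% on the plus and 28.9% on the minus strand in *Dnmt3a* KO, and 38.9% and 55.7% in *Dnmt3b* KO ESCs. *Snrpn* was read almost only on the minus strand, with 100 plus-strand against 621 minus-strand reads in *Dnmt3a* KO and 19 against 717 in *Dnmt3b* KO ESCs. With equal weights for both strands its difference was -27.7 (interval -38.3 to -17.1), past the limit for a call. The part of the strands in the differences between the lines was not tested. At *Kcnq1ot1*, *Peg3* and *Peg10* the differences by strand ran from -17.1 to -9.32, from -16.9 to -10.8 and from -17.1 to -12.1. Like these, *H19*, *Mest* and *Nap1l5* were read on both strands in both lines. Their differences on the plus and the minus strand were -7.12 and -3.36, -2.41 and -28.6, and -6.01 and -35.6.

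**Figure D2:**
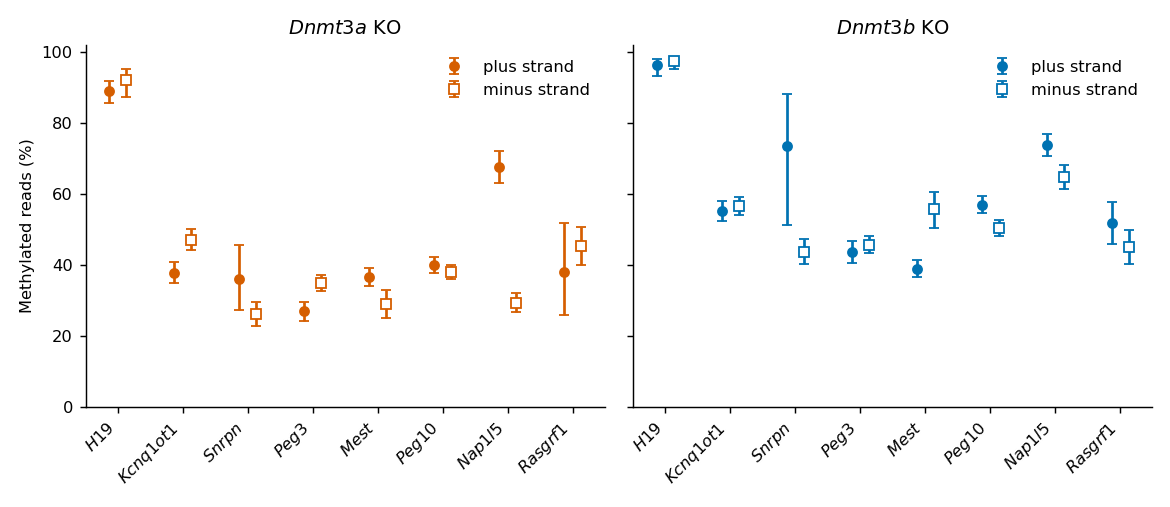
Share of methylated reads (%) on the plus strand (filled circles) and the minus strand (open squares) of each germline DMR in *Dnmt3a* KO (left) and *Dnmt3b* KO (right) ESCs, with 95% Wilson intervals. The widest gap with narrow intervals is at *Nap1l5* in *Dnmt3a* KO ESCs, 67.8% against 29.4%.

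Most single CpGs of these DMRs were themselves intermediate. Among CpGs with at least 10 reads in the 7 DMRs other than *H19*, 446 of 548 (81.4%) were between 20% and 80% in *Dnmt3a* KO and 514 of 573 (89.7%) in *Dnmt3b* KO ESCs. In the genome as a whole 66.0% of CpGs were in this range in *Dnmt3a* KO against 26.5% in *Dnmt3b* KO ESCs. The distance from the genome was wider in *Dnmt3b* KO ESCs, where most other CpGs were at 80% or more. Between single CpGs of 1 DMR the SD was 10.5 to 22.7 percentage points in *Dnmt3a* KO and 5.03 to 18.2 in *Dnmt3b* KO ESCs.

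Next, each germline DMR was set against its surroundings, the CpGs from 2 to 10 kb on both sides outside CpG-dense stretches. The flanks had a median of 56.5% in *Dnmt3a* KO compared with 86.2% in *Dnmt3b* KO ESCs, and the differences at the 8 flanks ran from -33.0 to -22.4 with a median of -24.5. The difference in percentage points was smaller at the DMR than at its flank in 7 of 8 loci, with *Nap1l5* as the exception. With both strands of the DMR weighted equally, the exception was *Snrpn* (-27.7, flank -25.0) and not *Nap1l5* (-20.9, flank -22.4). As a ratio of the 2 lines the gap was less clear. *Dnmt3a* KO ESCs had 0.744 times the level of *Dnmt3b* KO ESCs at the median DMR and 0.690 times at the median flank, and the ratio was larger at the DMR in 5 of 8 loci. These were *H19*, *Kcnq1ot1*, *Mest*, *Peg10* and *Rasgrf1*.

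The same differences can be read within each line. Relative to the flank, the DMR was a deeper trough in *Dnmt3b* KO than in *Dnmt3a* KO ESCs, with a median of -29.1 against -17.2 percentage points. *H19* was the exception in both lines, since its DMR was 26.8 percentage points above the flank in *Dnmt3a* KO and 9.66 above it in *Dnmt3b* KO ESCs. At *Mest* the trough was -45.6 in *Dnmt3b* KO and -22.4 in *Dnmt3a* KO ESCs. At *Nap1l5* the order was turned, with -18.1 and -25.0. With both strands weighted equally its DMR had 69.5% in *Dnmt3b* KO and 48.6% in *Dnmt3a* KO ESCs. Against its pooled flanks of 87.5% and 65.1% the order was then not turned. The bins at the DMR edges show the same steps. At *Rasgrf1* the levels in *Dnmt3b* KO ESCs fell from 91.6% in the bin 1.4 kb before the DMR centre to 48.7% in the bin at the centre, and in *Dnmt3a* KO ESCs from 64.7% to 45.8%.

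**Figure D3:**
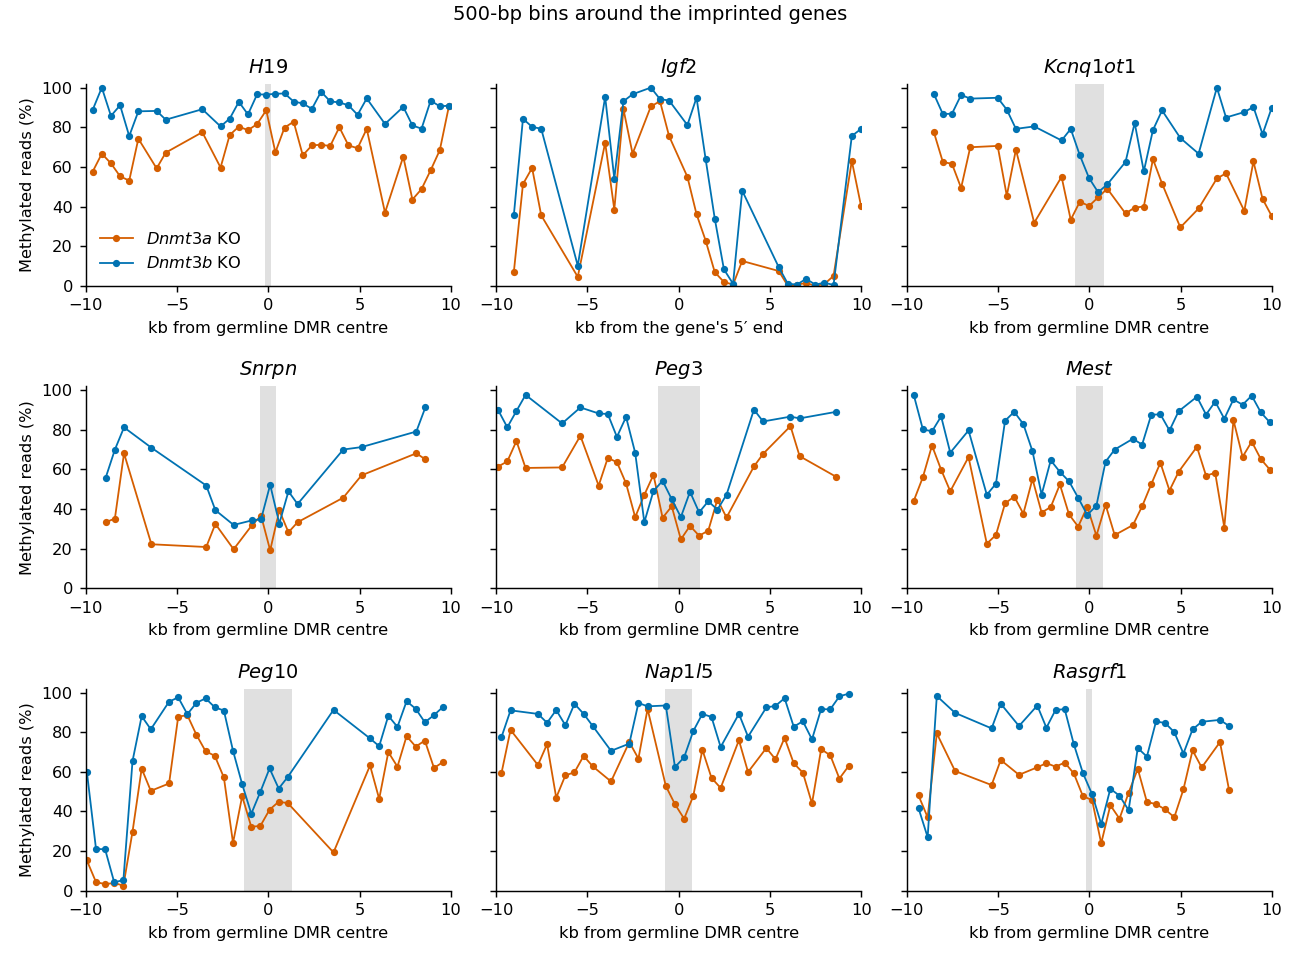
Share of methylated reads (%) in 500-bp bins with at least 3 CpGs, by distance in kb from the centre of the germline DMR in the direction of the gene (for *Igf2*, from its 5′ end), in *Dnmt3a* KO (orange) and *Dnmt3b* KO (blue) ESCs; grey marks the DMR. The lines approach each other inside most DMRs and lie apart in the flanks, as at *Rasgrf1* with 45.8% and 48.7% at the centre.

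Single CpGs were called as well. A CpG was called where the 95% credible interval of its difference lay beyond 0.2 on the scale of the ratio. In the 8 germline DMRs 23 of 616 CpGs (3.73%) were called lower in *Dnmt3a* KO and 5 higher, against 141 of 891 (15.8%) lower and 1 higher in their flanks. These shares are not matched for level. In *Dnmt3b* KO ESCs the median was 50.6% at the DMRs and 86.2% at the flanks, which leaves DMR CpGs less room for a fall. At *Nap1l5* the DMR differed more than its flank (-29.3 against -22.4), yet fewer of its CpGs were called lower (8.70% against 13.6%). The 5 higher CpGs were 4 in the *Mest* DMR and 1 in the *Peg3* DMR, and the 23 lower ones were 10 at *Peg10*, 6 at *Nap1l5*, 4 at *Kcnq1ot1* and 3 at *Peg3*. Over the whole windows of the 9 genes 713 of 5476 CpGs (13.0%) were called lower and 11 higher. In the genome 16.7% of CpGs were called lower and 0.0607% higher. The share in the windows was below that of the genome in the lower direction and, from 11 CpGs, above it in the higher direction. The windows are not matched to the genome for level. They hold stretches near 0 in both lines, as over *Igf2* promoters and the *Rasgrf1* TSS, and the *Igf2* window had 7.4% of its CpGs called lower. The median depth at the CpGs of the windows was 20 reads in *Dnmt3a* KO against 22 in *Dnmt3b* KO ESCs.

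Over the whole windows the bins were close to those of the genome. Of 695 bins of 500 bp, 438 (63.0%) were called lower in *Dnmt3a* KO ESCs and 0 higher, where 67.0% of all bins of the genome were called lower and 0.0804% higher. The median difference was -24.6 percentage points in these bins and -26.4 in all bins. By gene, the share of bins called lower ran from 48.5% at *Peg3* to 73.0% at *Kcnq1ot1*, so that 7 of 9 genes were below the share of the genome. *Kcnq1ot1* and *Mest* (69.7%) were above it. The widest difference of a bin was at *Peg10*, at -71.9, in a bin of 3 CpGs 3.6 kb after the DMR centre.

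**Figure D4:**
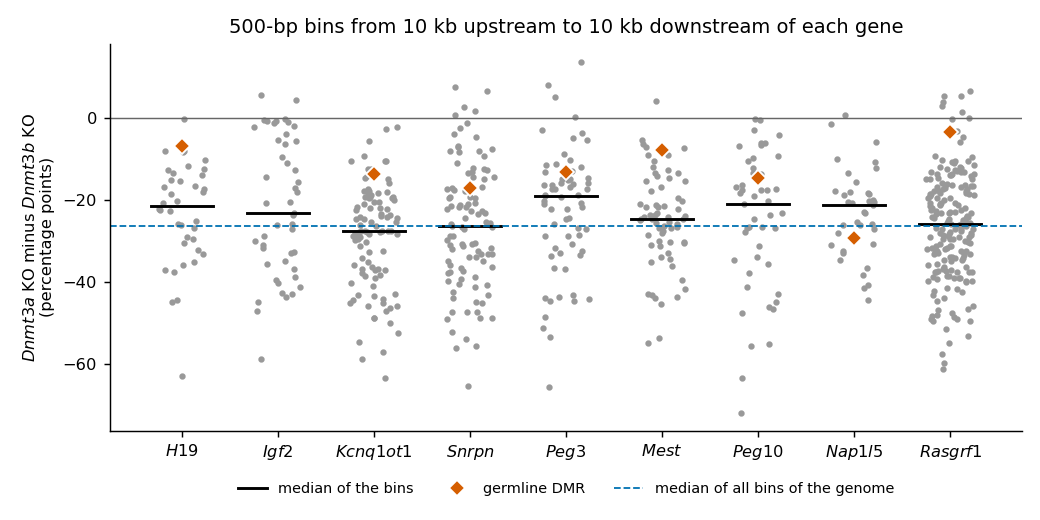
Difference in methylated reads between *Dnmt3a* KO and *Dnmt3b* KO ESCs (percentage points) for each 500-bp bin of the windows (grey points, spread sideways at random), with the median of the bins (black line), the germline DMR (orange diamond) and the median of all bins of the genome (dashed line, -26.4). The DMR lies above the median of the bins at each gene that has one except *Nap1l5*.

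CpG-dense stretches differed with their level. The windows hold 76 such stretches, 7 of them germline DMRs, since the *Rasgrf1* DMR lies outside. In these windows 36 of 76 (47.4%) were called lower and 0 higher, against 62.8% and 0.0288% of all stretches. The median difference was -19.6, against -24.8 for all stretches. Leaving out the DMRs, 35 of 69 (50.7%) were called lower. Of these, 30 were among the 53 stretches at 70% or more in *Dnmt3b* KO ESCs and 5 among the 11 at 30% to 70%. These shares are 56.6% and 45.5%, where 70.1% and 72.9% of all stretches of the same levels were called lower. None of the 5 stretches under 30% was called, against 4.30% of all such stretches. These 5 were 1 over *Igf2* promoters, 1 in *Igf2* outside its exons, 1 over the *Rasgrf1* TSS, 1 upstream of it and 1 over the TSS of *Zim1* downstream of *Peg3*. All but that at *Zim1* (21.2%) had 7.33% or less in *Dnmt3b* KO ESCs, where a fall of over 20 percentage points cannot occur.

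The germline DMRs were then placed among stretches of like level. Of all stretches 29874 were at 30% to 70% in *Dnmt3b* KO ESCs, limits chosen after the data were seen. Of these 72.9% were called lower, their median level in *Dnmt3a* KO ESCs was 22.7%, and 34.5% of them were still between 30% and 70% there. Of the 7 germline DMRs in that range, all but *H19*, 1 was called lower and 6 were still in the range, with a median of 39.0%. The differences of the 7 DMRs ran from -29.3 to -3.34, inside the span of -47.9 to -7.84 that holds the middle 80% of the stretches, except for *Rasgrf1* and *Mest*, which lay above it. With stretches of at least 20 CpGs only, as all 7 DMRs are, 58.9% were called lower, the median level in *Dnmt3a* KO ESCs was 26.9% and 43.0% were still in the range. Their median difference was -23.8 and the middle 80% ran from -43.0 to -2.13, a span that holds all 7 DMRs. Stretches were chosen here by their level in *Dnmt3b* KO ESCs, which also enters the difference, so that these shares are a description.

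**Figure D5:**
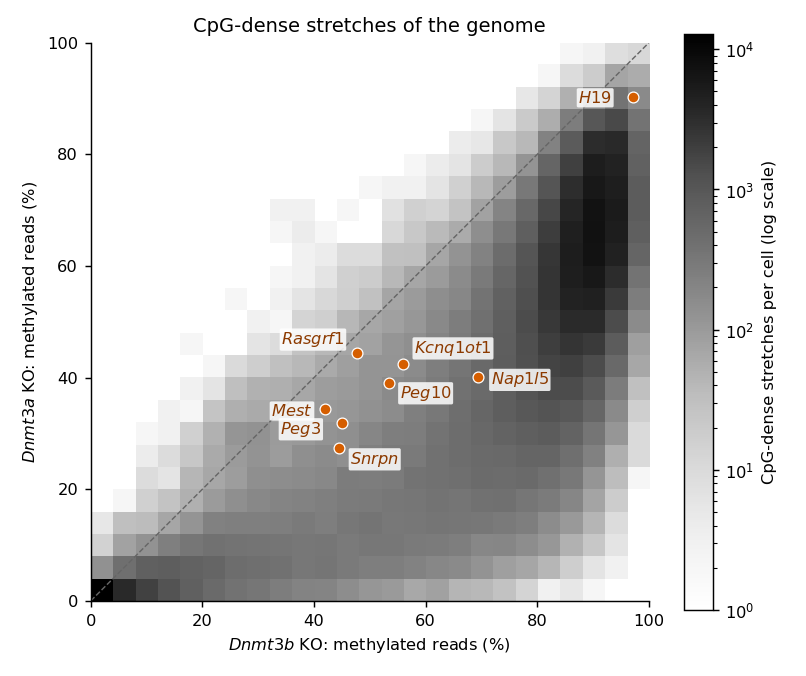
Share of methylated reads (%) in *Dnmt3b* KO (horizontal) and *Dnmt3a* KO (vertical) ESCs for 250089 CpG-dense stretches, as a density in cells of 4 by 4 percentage points (grey, log scale), with the 8 germline DMRs in orange. The dashed line marks equal levels, and 7 DMRs lie to the left of the main mass of stretches, between 42.1% and 69.4% in *Dnmt3b* KO ESCs.

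*Igf2* and *H19* share enhancers, and CTCF bound at the unmethylated *H19* DMR keeps them from *Igf2*. The *Igf2* window held stretches of opposite kinds. The longest (chr7:149844122-149847344), over *Igf2* promoters, had 1.9% in *Dnmt3a* KO versus 2.1% in *Dnmt3b* KO ESCs, and the next (chr7:149849661-149850293) had 0.6% and 3.7%. The 2 stretches upstream of the gene in *Igf2as*, an RNA from the opposite strand, were methylated, with 91.9% and 95.2% in the nearer one and 87.8% and 93.0% in the farther one, and were not called. The 2 stretches near 0 lie in the body of the gene, which had 16.8% and 29.7% as a whole. The other stretches in the body were intermediate in *Dnmt3a* KO and higher in *Dnmt3b* KO ESCs. That at chr7:149841437-149841736 had 20.8% and 51.6%, and that at chr7:149837373-149838129 over exon sequence had 61.8% and 85.8%. The promoter at the 5′ end of the annotated gene had 54.9% and 90.2%, from 4 CpGs, and was called lower.

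The promoters of the members were taken at the 5′ end of the annotated gene. *Peg3* (34.1% in *Dnmt3a* KO against 42.3% in *Dnmt3b* KO ESCs) and *Peg10* (36.4% and 45.3%) have that end inside the DMR, and their promoters were not called. *Nap1l5* (40.8% and 68.1%) and *Kcnq1ot1* (39.3% and 65.5%) have it there too, and their promoters were called lower. At *Snrpn* the 5′ end of the longest annotated transcript, far upstream of the DMR, had 38.1% and 90.8%, from 5 CpGs. At *Mest* it lies upstream of the DMR, which covers another TSS, and the promoter was not called. In all, 5 of the 9 promoters were called lower and 0 higher, where 30.3% of 21434 protein-coding promoters of the genome were called lower. The calls at *Igf2* and *Snrpn* rest on 4 and 5 CpGs. These shares are not matched for level. All member promoters but that of *Rasgrf1* had 42.3% or more in *Dnmt3b* KO ESCs, whereas the median difference of all promoters was only -3.68.

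Other imprinted genes of chromosomes 6 and 7, most of them neighbours of the members (*Inpp5f* lies far from all of them), were taken from a list of 36, of which 33 were found in the annotation and had a measured promoter. Of these 8 (24.2%) were called lower and 0 higher, near the 30.3% of all promoters, and the median difference was -2.09 against -3.68. The 5 with the widest differences were *Tspan32*, a tetraspanin gene (42.9% in *Dnmt3a* KO compared with 84.7% in *Dnmt3b* KO ESCs), the insulin gene *Ins2* (43.2% and 79.9%), the deubiquitinase gene *Usp29* (59.8% and 93.7%), *Cpa4*, a carboxypeptidase gene (60.3% and 89.8%), and *Th*, the tyrosine hydroxylase gene (66.6% and 91.2%). The 5 with the narrowest were *Ube3a*, a ubiquitin ligase gene (0.471% and 0.450%), *Nap1l4* (0.299% and 0.469%), *Phlda2*, which limits growth of the placenta (0.736% and 1.03%), *Tssc4* (0% and 0.395%) and *Ppp1r9a* (0.380% and 0.877%). These 5 promoters were close to 0 in both lines, and those of the first 5 were methylated in both. *Sgce*, whose promoter lies in the *Peg10* DMR, had 36.2% and 43.1%.

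The hexamer TGCCGC was present in all 8 germline DMRs. It occurred 10 times at *Mest*, 8 at *Snrpn*, 7 at *Peg3*, 5 at *Nap1l5*, 5 at *Rasgrf1* and 3 each at *H19*, *Kcnq1ot1* and *Peg10*. In the central 500 bp 7 of 8 DMRs held at least 1, against 16.5% of all stretches and 27.5% of the 60811 stretches of at least 20 CpGs. CpGs inside a hexamer had 38.9% methylated reads in *Dnmt3a* KO against 53.7% in *Dnmt3b* KO ESCs, and the other CpGs of the DMRs had 39.3% and 53.7%. These are pooled values. Within each of the 8 DMRs the intervals of the CpGs inside and outside hexamers overlapped in both lines. In *Dnmt3a* KO ESCs the values inside were below those outside at *Snrpn* (21.6% and 29.0%), *Peg3*, *Peg10* and *Nap1l5*, and above them at *H19*, *Kcnq1ot1*, *Mest* and *Rasgrf1* (52.9% and 42.5%). The CTCF core GGNGGCAG occurred within the DMR at *H19* and at *Peg3*. In the central 500 bp, which run past the ends of the short *H19* and *Rasgrf1* DMRs, 3 of 8 held it (*H19*, *Peg3* and *Rasgrf1*), against 18.7% of all stretches. A match of letters is not a bound site.

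Genes with a promoter of like levels were looked for among 15553 genes whose TSS lies within 500 bp of a stretch of at least 20 CpGs. Likeness was the distance of the pair of levels in the 2 lines from the medians of the germline DMRs. The nearest were *Sco2* (38.2% in *Dnmt3a* KO versus 51.8% in *Dnmt3b* KO ESCs), *Gm13275* and *Gm17476*, which share 1 stretch (38.1% and 51.8%), *Zcchc14* (37.0% and 51.0%) and *Gm17379* (37.5% and 52.3%). In all 93 of the 15553 genes lay within 10 percentage points, among them genes that share 1 stretch and the imprinted genes *Gnas* and *Meg3*. Like levels were thus found at stretches near the TSS of other genes too.

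The tables as a whole are of like depth. The median was 20 reads per CpG in both lines, no CpG of the windows had more than 200 reads, and the mean CpG level of the genome was 49.8% in *Dnmt3a* KO against 74.8% in *Dnmt3b* KO ESCs. The longest run of CpGs without reads in *Dnmt3b* was 30 in *Dnmt3b* KO and 0 in *Dnmt3a* KO ESCs, and that in *Dnmt3a* was 12 in *Dnmt3a* KO compared with 5 in *Dnmt3b* KO ESCs, the narrower gap of these.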

How the data were processed

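WGBS tables of *Dnmt3a* KO and *Dnmt3b* KO J1 ESCs were used. The authors aligned reads to mm9 with BSMAP, removed 3 bases at repaired ends, clonal reads and overlapping mates with BSeQC, merged the 3 libraries of a genotype and counted reads with the mCall module of MOABS. The deposited tables hold raw counts of all and methylated reads per CpG, in total and by strand, and the methylation ratio, a fraction that the authors calculated from these counts and rounded. Every row was checked to lie on a reference CpG, and in the 2 KO tables the ratio was checked against the counts with a tolerance of 0.00051; 0 rows failed. The WT table holds 0 rows on chromosomes 6, 7 and 9 and was used for no value.

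The level of a region was the share of methylated reads over CpGs with at least 3 reads, and bins needed at least 3 such CpGs. CpGs with more than 200 reads were scaled to 200 for credible intervals. Germline DMRs were the stretch with the most CpGs within 2 kb of a TSS, or from 1 to 6 kb (*H19*) or 20 to 45 kb (*Rasgrf1*) upstream; for *Kcnq1ot1* the longest stretch inside its host gene *Kcnq1* was taken. *Kcnq1ot1* was placed by an exact match of its RefSeq promoter in mm9, with the gene length of RefSeq. Other genes are from GENCODE of mm9. Calls were tested on simulated data. Clonal reads were removed by the authors with a Poisson limit, so that copies of a molecule may remain.

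The members and the gene lists were chosen with earlier results of these data known. The genes named are the 9 members, the 5 neighbours with the widest and the 5 with the narrowest difference, and the 5 genes of most like levels; *Sgce*, *Kcnq1*, *Herc3*, *Igf2as*, *Zim1*, *Inpp5f*, *Gnas*, *Meg3*, *Zrsr1* and *Commd1* are named beside a member or after their values were seen. Python 3.11.15, NumPy 2.4.6, SciPy 1.17.1, numba 0.67.0 and matplotlib 3.10.9 were used. Alternatives covered the minimum of reads, the mean of ratios, gaps, strands, bin size, flanks and limits of calls.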

Additional observations from a re-analysis of the deposited data

How the results depend on the processing

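No paired analysis was possible because the 3 libraries of a genotype are merged in 1 table; this also kept each replicate from being left out in turn. The minimum of reads, the mean of ratios and the depth limit changed none of the counts or medians of the germline DMRs beyond their counting error, but the mean of ratios moved *Mest* to -1.71, *Peg10* to -12.0 and *Nap1l5* to -25.8. With gaps of at most 50 bp the median of the chosen stretches was 46.9% in *Dnmt3b* KO ESCs and the median difference -5.92. Of the window stretches 15 of 57 (26.3%, against 37.0% of all) were then called lower. With gaps of at most 200 bp 76 of 114 (66.7%, against 73.5%) were, and 2 of the chosen stretches, those of *Nap1l5* and *Kcnq1ot1*. Both settings moved the *Kcnq1ot1* choice off its germline DMR to other stretches of *Kcnq1*. These had 17.7% and 38.9% with the 200-bp gap, and 1.42% and 9.43% with the 50-bp gap. The 50-bp gap also moved *Snrpn* to its TSS (difference 8.39, interval 0.260 to 16.5) and turned *Mest* to 4.79. The minus strand alone gave 2 DMRs called lower, *Mest* and *Nap1l5*, and medians of 36.6% and 53.5%. The plus strand gave 1, *Rasgrf1*, from 39 reads in *Dnmt3a* KO ESCs, and no value at *Snrpn*. Without the minimum of 3 reads per CpG, *Rasgrf1* had 38.0% and 51.9% on the plus strand, short of a call. With strands weighted equally 2 were called (*Snrpn* and *Nap1l5*) and the median in *Dnmt3b* KO ESCs was 54.8%. Beyond 10 points 5 DMRs and 63 stretches (82.9%, against 84.0% of all) were called, with 83.5% of bins against 82.8% of all and 1 bin higher; beyond 30 points 0 DMRs, 13 stretches (17.1% against 36.3%) and 243 bins (35.0% against 40.2%) were. With 250-bp bins 2 bins were called higher. A credible difference beyond 0.1 gave 1372 CpGs lower (25.1%, against 29.0% of all CpGs) and 28 higher, and beyond 0.3 gave 338 (6.17% against 8.78%) and 4. DMR minus flank was -12.0 in *Dnmt3a* KO ESCs with a flank of 1 to 5 kb and -33.2 in *Dnmt3b* KO ESCs with 5 to 20 kb. The cause was not tested where the choice of stretch or strand does not show it. With at least 10 reads per CpG 14.5% of the CpGs of the windows were called lower, against 18.9% of all CpGs, and the median depth was 20 reads.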

Other observations

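Stretches over an annotated TSS outside the listed loci held further imprinted genes at like levels, chosen here after their values were seen. The stretch of *Gnas* on chromosome 2 had 42.1% of reads methylated in *Dnmt3a* KO against 53.5% in *Dnmt3b* KO ESCs over 217 CpGs, a difference of -11.4 percentage points. *Gnas* encodes a subunit of the stimulatory G protein. The stretch of *Meg3*, a noncoding RNA gene on chromosome 12, had 42.3% and 44.8%, a difference of -2.47, and that of *Zrsr1*, which lies inside *Commd1* on chromosome 11, had 43.1% and 44.6%, a difference of -1.53.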
